A study of Mus musculus with 2 samples.

Results

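The subject here is a set of 44 genes of the cell cycle and mitosis. It holds G1 cyclins and kinases, G1/S factors, replication genes, mitotic regulators and kinase inhibitors. The genes were listed by symbol, with earlier results of these data known. All 44 were found among the 24542 gene symbols of the deposited mouse transcript table, and all 44 were among the 14466 genes with enough reads to test. The samples were total RNA of left ventricle from male C57BL/6 mice 7 days after permanent ligation of the proximal left anterior descending (LAD) artery of the heart, a surgical model of myocardial infarction. The tissue was remote muscle, left after the scar and its border had been cut away. NRK-2 KO mice, which lack a kinase of NAD salvage encoded by Nmrk2, were compared with littermate controls, and both genotypes had the ligation. The sources used here do not say how the allele was made or in which cells it acts. The labels list 1 sample per genotype, while the table holds 3 numbered libraries for each, here control 1 to 3 and KO 1 to 3. Nothing says that these came from separate animals, so p-values measure the spread between libraries, which may be technical.

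The libraries held 22377348 to 22831189 counted reads in control and 26975513 to 33086384 in those labelled KO. Levels are given as CPM, read counts scaled to a common library total with a TMM factor, which corrects for differences in RNA composition. Levels of different genes are compared only by FPKM, which also divides by transcript length. Log2 fold changes are knockout over control, and a gene is said to have risen or fallen where its adjusted p was under 0.05 (edgeR's quasi-likelihood test, Benjamini-Hochberg over all genes tested). The targeted gene Nmrk2 (chromosome 10, 81198170 to 81202037, mm10) had 308, 270 and 118 reads in the control libraries, and 808, 9 and 0 reads in those labelled KO 1, KO 2 and KO 3 (a count of 0 allows up to 3 reads). The library labelled KO 1 thus went against its label, so edgeR's counts of calls and the median fold changes of the whole set, the mitotic genes and the further lists are also given without it. Libraries stood apart in other ways too. Control 3 had the highest sums of B cell, neutrophil, adipocyte and mesothelial markers, and the atrial genes Sln, Myl4 and Myl7 were abundant in control 1, control 2 and the library labelled KO 1 alone.

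Cells enter the cycle when D-type cyclins with Cdk4 or Cdk6 free E2F factors from the retinoblastoma proteins, which turns on genes for DNA replication. A later wave of genes for the G2 phase and mitosis is switched on through the B-Myb, FOXM1 and MuvB proteins. MuvB binds the cell cycle genes homology region (CHR), often near CCAAT boxes bound by NF-Y. Most adult cardiomyocytes no longer divide, and after infarction it is mainly fibroblasts, immune cells and endothelial cells that proliferate.

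Promoters are shown because the mitotic genes moved together across libraries, as described below. Promoters of 36 of the 44 genes were matched by symbol in the RefSeq table (GRCm38.p6), 41 promoters in all, each from 250 bases before to 50 bases after a transcription start. Both strands were searched for the CHR (TTTGAA), the CCAAT box (CCAAT) and E2F sites (TTTCCCGC, TTTGGCGC, TTTCGCGC or TTTGCCGC), and no motif holds another. In the following stretches, the 150 bases before the start are printed on the gene's strand, with matches on either strand in capitals. These 5 genes were chosen after their values were seen.
Ccnb1: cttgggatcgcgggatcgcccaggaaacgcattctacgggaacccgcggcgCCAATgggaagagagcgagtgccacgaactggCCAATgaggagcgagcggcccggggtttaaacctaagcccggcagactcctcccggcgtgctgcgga
Cdk1: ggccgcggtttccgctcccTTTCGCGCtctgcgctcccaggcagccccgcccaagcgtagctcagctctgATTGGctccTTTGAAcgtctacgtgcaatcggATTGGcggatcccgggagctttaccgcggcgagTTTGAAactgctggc
Cdc20: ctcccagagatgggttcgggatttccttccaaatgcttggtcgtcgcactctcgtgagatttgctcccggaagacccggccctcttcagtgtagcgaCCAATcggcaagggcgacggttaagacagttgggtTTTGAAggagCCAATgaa
Top2a: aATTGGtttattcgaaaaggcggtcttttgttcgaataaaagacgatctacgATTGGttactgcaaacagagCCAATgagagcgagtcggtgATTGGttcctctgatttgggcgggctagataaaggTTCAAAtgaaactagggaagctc
Mcm6: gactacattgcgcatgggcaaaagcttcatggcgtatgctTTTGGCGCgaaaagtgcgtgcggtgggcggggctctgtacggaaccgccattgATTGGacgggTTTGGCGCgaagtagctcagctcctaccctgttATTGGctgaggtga
They lie on the minus strand at chr13:100786487-100786636, chr10:69352913-69353062, chr4:118437344-118437493, chr11:99024190-99024339 and chr1:128359706-128359855, in that order. Cdk1 has both kinds of mitotic motif in this stretch, with CHR matches starting 71 and 15 bases before the start, CCAAT matches at 80 and 48 bases, and an E2F match at 131 bases. Cdc20 has a CHR match at 18 bases between CCAAT matches at 53 and 8 bases. Top2a has a CHR match at 23 bases and CCAAT matches at 149, 98, 78 and 58 bases. Ccnb1 has a pair of CCAAT boxes and no match to TTTGAA in the searched window. Other forms of the CHR were not searched for in any promoter. Mcm6, of the replication genes, has E2F matches at 110 and 47 bases and CCAAT matches at 57 and 14 bases, and no CHR match.

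Among the 18 promoters of G2/M and mitotic genes, 13 (72.2%) held a CHR and 16 (88.9%) a CCAAT box, and the 13 with a CHR all held a CCAAT box as well. Of all 32851 promoters in the table, 17.9% held a CHR, 37.4% a CCAAT box and 6.95% both. Of the 10 promoters of replication genes, 1 held a CHR, 9 a CCAAT box and 4 (40.0%) an E2F site, against 2.26% of all promoters for the E2F site. In the 18 mitotic promoters an E2F site was found once, in Cdk1. Such a match describes letters in a window and shows no binding.

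None of the 44 genes rose and none fell between the genotypes. Over all genes tested, 535 (3.70%) were called, 378 rising (2.61%) and 157 falling (1.09%), with edgeR. Of these calls 70.7% were higher in knockout, against 45.6% with DESeq2. At an unadjusted p under 0.05 there were 7 of the 44, all higher in knockout (Cdk6, Mcm3, Mcm6, Tyms, Cdk1, Ccnb1 and Cdkn1a), against 25.9% of all genes in either direction and 12.3% higher. DESeq2 called 4 of the 44 as risen (Ccnb1, Cdk1, Cdk6 and Tyms), against 7.75% of all genes risen by that tool. Without control 3, edgeR called 3 (Cdk6, Mcm6 and Tyms), while 24.6% of all genes were then called. Without the library labelled KO 1 it called 0 of the 44, and 0.597% of all genes; at an unadjusted p under 0.05 there were then 2 of the 44, against 20.0% of all genes. It called 0 of the 44 in every other edgeR or limma fit that was run, against 3.44% of all genes with RLE scaling, 4.38% with library totals, 2.32% without a filter, 5.97% with limma on FPKM and 1.20% with the most abundant transcript. With the library number as a block the share of all genes was 0.0415%, and without control 1, control 2, KO 2 or KO 3 it was 0.315%, 0.168%, 0.322% or 0.0204%. DESeq2 called 17.0% of all genes in either direction.

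The fitted differences leaned upward all the same. Of the 44 genes, 40 were fitted higher in knockout, against 7377 of all 14466 genes tested. The other 4 were fitted lower (Ccnd3, Ccne2, Pcna and Cdkn1b, from -0.05 to -0.01 on the log2 scale). With library totals alone as scaling, all 44 were fitted higher. Their median log2 fold change was 0.60, against 0.01 over all genes tested. It was 0.33 without the library labelled KO 1, against 0.02 over all genes, and 35 of 44 were then fitted higher.

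**Figure D1:**
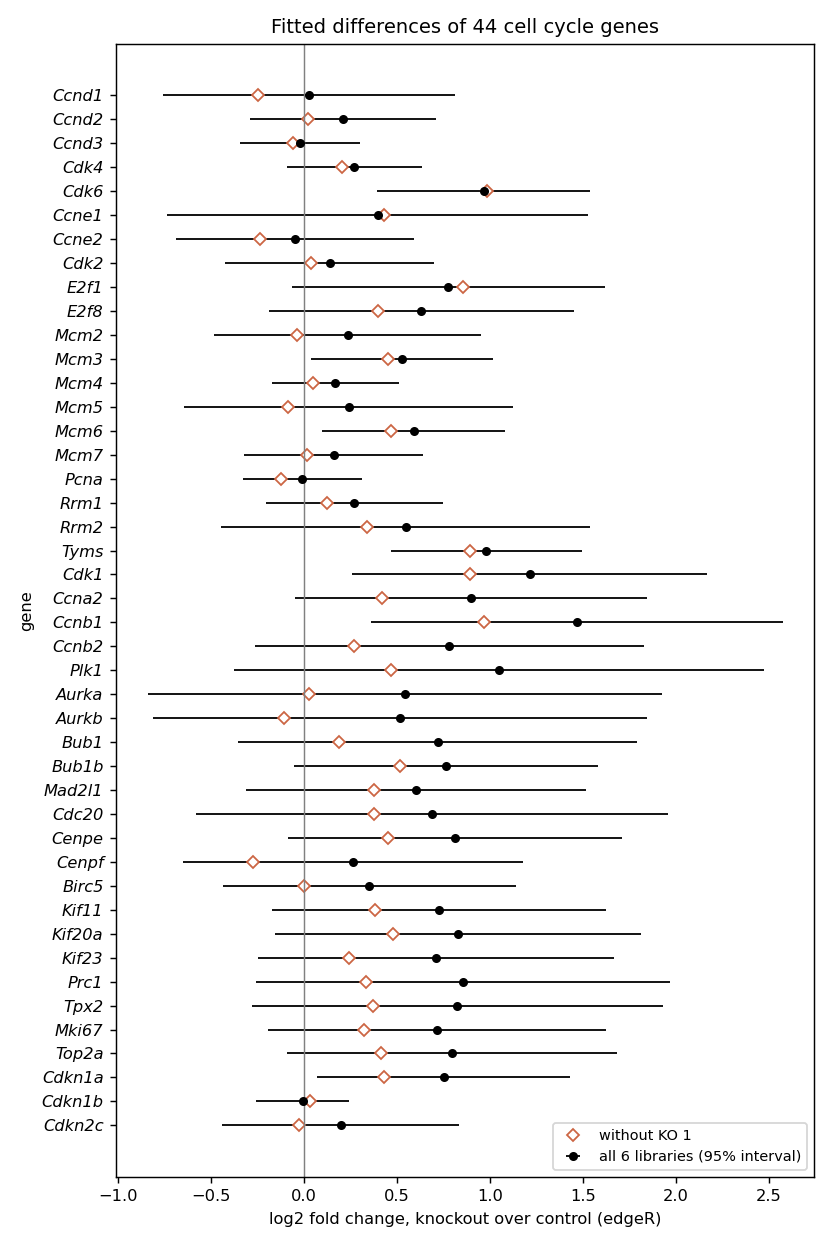
Fitted log2 fold change (x axis, knockout over control, edgeR) of each of the 44 genes (rows, ordered by role). Black points with bars are fits on all 6 libraries with 95% intervals, and open diamonds are fits without the library labelled KO 1; the diamonds lie left of their points except for Cdk6, Ccne1, E2f1 and Cdkn1b.

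The libraries labelled KO differed among themselves in an order that most of the genes shared. KO 1 was the highest of all 6 libraries for 35 of the 44 genes (10.5% of all genes tested have it highest), and KO 3 was the lowest for 21 of the 44 (9.50% of all genes). For 31 of the 44 (70.5%), KO 1 and KO 2 stood above all 3 controls and KO 3 did not, an order found in 6.93% of all genes. KO 3 exceeded KO 1 in 3 genes of the 44 and KO 2 in 1. All 3 libraries labelled KO lay above all 3 controls for 3 of the 44 genes (Cdk6, E2f1 and Tyms), or 6.82%, against 16.4% of all genes; none of the 44 lay below in all 3, against 14.5%. With KO 1 left out, KO 2 and KO 3 lay above all controls for 3 of the 44, against 20.7% of all genes. In bulk tissue, fewer cells in cycle and less of these RNAs per cell cannot be told apart.

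**Figure D2:**
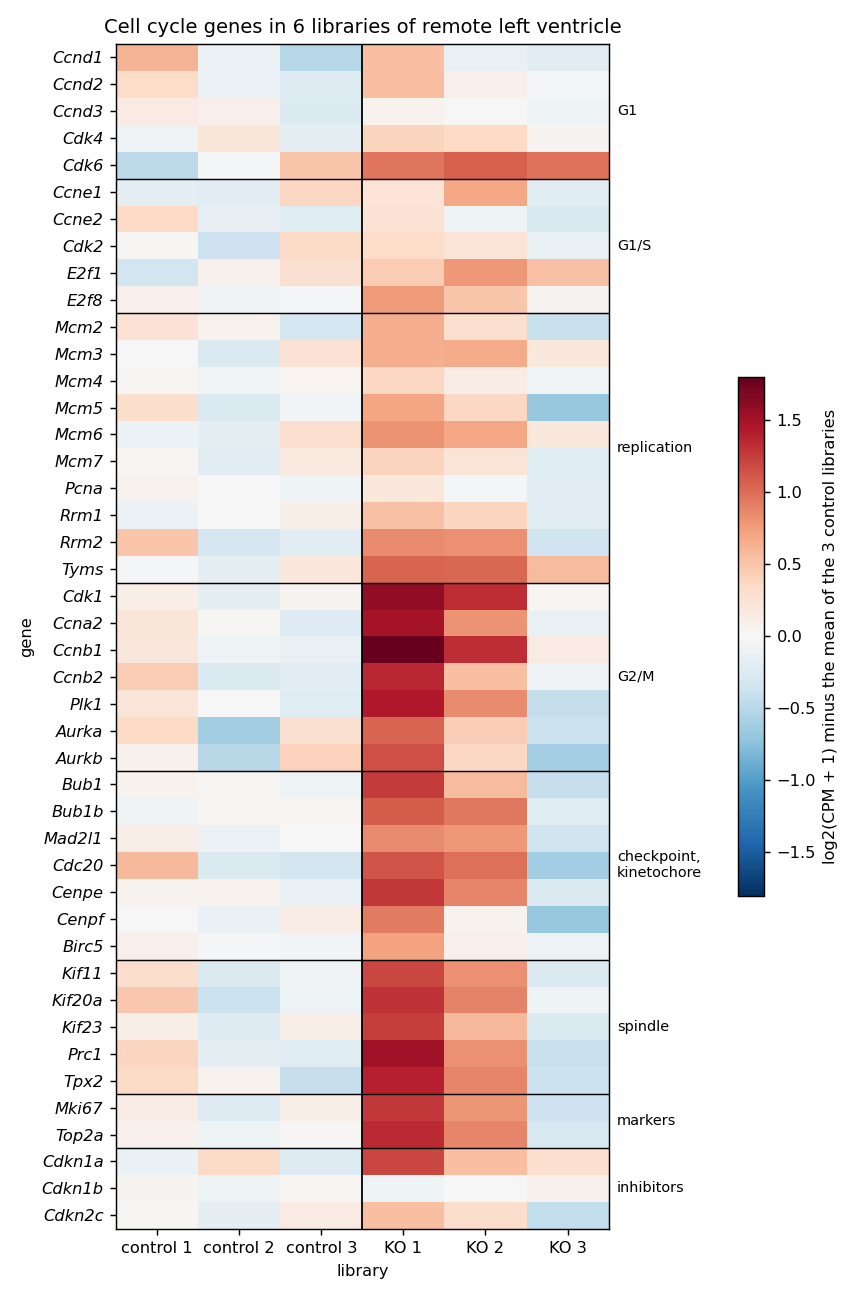
Level of each of the 44 genes (rows, grouped by role) in each of the 6 libraries (columns), as log2(CPM + 1) minus the mean of the 3 control libraries. From the G2/M rows to the proliferation markers, KO 1 is the darkest red column in all 21 genes, KO 2 is paler, and KO 3 is near or below the controls.

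The G1 genes form the machinery of entry. By FPKM 4 of the 5 were among the most abundant of the set: the kinase Cdk4 led with a mean of 50.3 FPKM over the 6 libraries, and the D-type cyclins Ccnd1, Ccnd2 and Ccnd3 came after Pcna at 32.7, 26.1 and 23.6 FPKM. The kinase Cdk6 ranked 18 of 44, at 6.29 FPKM. Cdk4 was at 58.8, 72.3 and 55.4 CPM in control 1, 2 and 3, and at 81.9, 79.3 and 63.9 CPM in the libraries labelled KO 1, 2 and 3. KO 1 and KO 2 were above every control and KO 3 was inside the control range (log2 fold change 0.27, SE 0.15, edgeR adjusted p = 0.309).

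Cdk6, the other partner of the D-type cyclins, departed from the order of most of the set. Control libraries held 33.5, 46.0 and 67.1 CPM of Cdk6, and those labelled KO held 92.9, 99.9 and 93.6 CPM. The KO libraries were close together and all above the controls, while the controls lay further apart. Its log2 fold change was 0.97 (SE 0.24, 95% interval 0.39 to 1.54) with an edgeR adjusted p of 0.0743, and 0.99 without KO 1 (adjusted p = 0.174). DESeq2 gave an adjusted p of 0.00582, and edgeR without control 3 gave 0.0141. The KO 1 to KO 3 ratio of Cdk6 was 0.993 (95% interval 0.940 to 1.05, from an exact binomial interval on the reads of these libraries).

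Ccnd1, the D-type cyclin induced by growth factors, varied widely between controls. Its level was 183, 111 and 83.3 CPM in control and 173, 108 and 104 CPM in the libraries labelled KO, so the groups overlapped throughout (log2 fold change 0.03, edgeR adjusted p = 0.967). The sign turned without KO 1, to -0.25. Ccnd2 (0.21) and Ccnd3 (-0.02) likewise overlapped between genotypes, with edgeR adjusted p of 0.567 and 0.951.

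The G1/S group holds the E-type cyclins, their kinase Cdk2, and the factors E2f1, an activator, and E2f8, a repressor of E2F targets. By FPKM, 3 of these 5 held the last places of the set, E2f8, E2f1 and Ccne1 at 0.785, 1.06 and 1.08 FPKM, while Ccne2 was at 2.45 and Cdk2 at 6.49 FPKM. Cdk2, the most abundant of the group, was at 14.5, 10.8 and 18.4 CPM in control and 18.2, 17.0 and 12.9 CPM in the libraries labelled KO, with no separation (log2 fold change 0.14, SE 0.24, edgeR adjusted p = 0.750). E2f1 was at 1.42, 2.26 and 2.72 CPM in control and at 3.25, 4.31 and 3.43 CPM in the KO libraries. Its groups did not overlap, but it rests on 29 to 154 reads per library and did not pass the test (log2 fold change 0.78, SE 0.35, edgeR adjusted p = 0.221, and 0.86 with adjusted p = 0.335 without KO 1). KO 3 was above both KO 1 and all controls in Cdk6, E2f1 and, by a small margin, the inhibitor Cdkn1b, and in no other of the 44.

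For E2f8 the controls were close together at 2.17 to 2.502 CPM, and the libraries labelled KO descended from 4.63 through 3.67 to 2.41 CPM, the last within the control range. Ccne1, cyclin E1, was highest in KO 2 at 3.50 CPM and at 2.60 CPM in control 3. Ccne2, cyclin E2, was highest in control 1 at 10.1 CPM and lowest in KO 3 at 6.10 CPM. Neither cyclin separated the genotypes (log2 fold changes 0.40 and -0.05, edgeR adjusted p of 0.642 and 0.934).

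The replication group comprises the 6 subunits of the MCM helicase, the sliding clamp Pcna, the ribonucleotide reductase subunits Rrm1 and Rrm2, and thymidylate synthase, Tyms, which makes the thymine nucleotide of DNA. In 8 of the 10 genes KO 1 and KO 2 were above all controls with KO 3 not, but the steps were small: the median of the group lay 0.65 above the control mean in KO 1, 0.38 in KO 2 and -0.21 in KO 3, on the log2(CPM + 1) scale. Tyms came closest of the 44 to the threshold. Its levels were 6.87, 6.22 and 8.24 CPM in control and 15.7, 15.5 and 10.9 CPM in the libraries labelled KO, so that the lowest KO library exceeded the highest control. Its log2 fold change was 0.98 (SE 0.22, 95% interval 0.47 to 1.49) with an edgeR adjusted p of 0.0602, and 0.89 without KO 1 (adjusted p = 0.166). By DESeq2 the adjusted p of Tyms was 0.00262, and by edgeR without control 3 it was 0.0224.

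Mcm6, shown library by library because it was called in that fit, was at 29.8, 28.1 and 39.3 CPM in control and at 56.7, 52.8 and 36.9 CPM in the libraries labelled KO. KO 3 was below control 3, so the groups overlapped (log2 fold change 0.59, SE 0.21, edgeR adjusted p = 0.136 in all libraries, 0.0399 without control 3 and 0.327 without KO 1). Mcm3 had a similar difference (0.53, edgeR adjusted p = 0.165), and those of Mcm2, Mcm4, Mcm5 and Mcm7 ran from 0.16 to 0.24. Whether the subunits, which work as a ring of 6, differ from one another in this was not tested. All 6 were higher in KO 1 than in KO 3, by 1.35-fold (Mcm4) to 2.81-fold (Mcm5). Pcna, second of the set at 40.0 FPKM, was at 53.7, 51.6 and 48.6 CPM in control against 59.0, 49.9 and 44.3 CPM in the KO libraries, with KO 1 highest and KO 3 lowest at a ratio of 1.33 (95% interval 1.24 to 1.43). Its log2 fold change was -0.01 (SE 0.13, 95% interval -0.33 to 0.31, edgeR adjusted p = 0.983). Rrm2, the reductase subunit made in S phase, was at 5.66 CPM in KO 3 and 14.4 and 14.1 CPM in KO 1 and KO 2, with 11.1 CPM in control 1.

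**Figure D3:**
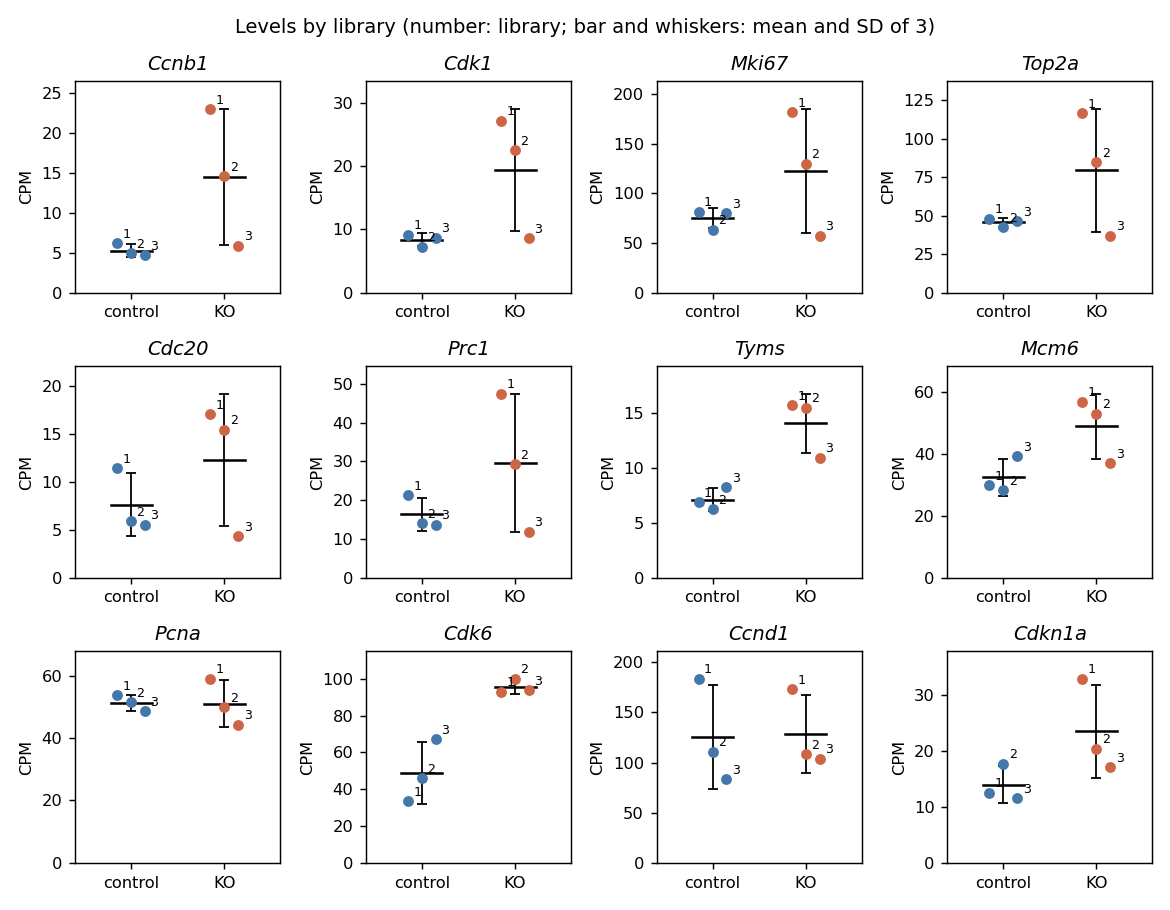
CPM (y axis, from 0) of 12 genes in the control and KO libraries; each point is a library with its number, and the bar and whiskers are the mean and SD of 3 libraries. In the 6 mitotic genes (Ccnb1 to Prc1) KO 1 and KO 2 lie above the controls and KO 3 lies among or below them, whereas the KO libraries of Cdk6 lie close together, and the means of Pcna are close in both groups.

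The G2/M kinases and cyclins drive entry into mitosis, and here the spread between KO libraries was wide. Ccnb1, cyclin B1, had the largest fitted difference of the set. Its levels were 6.18, 4.91 and 4.67 CPM in control, and 23.0, 14.6 and 5.88 CPM in the libraries labelled KO 1, 2 and 3. KO 1 was several times every control, KO 2 was between, and KO 3 was within the control range. Mean Ccnb1 was thus 5.25 ± 0.813 CPM for control and 14.5 ± 8.58 CPM for knockout (SD, n = 3 libraries of each). The log2 fold change was 1.47 (SE 0.47, 95% interval 0.36 to 2.57, edgeR adjusted p = 0.111), and 0.97 without KO 1 (adjusted p = 0.274). DESeq2 called it with an adjusted p of 0.0229.

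Its kinase partner Cdk1, given because DESeq2 called it too (adjusted p = 0.0347), followed the same order. Cdk1 was at 9.17, 7.23 and 8.68 CPM in control and at 27.1, 22.5 and 8.58 CPM in the libraries labelled KO, with KO 3 below 2 of the controls. The fitted difference was 1.21 (SE 0.40, edgeR adjusted p = 0.121), and 0.90 without KO 1 (adjusted p = 0.299). Ccna2, cyclin A2, was the most abundant of the group by FPKM, at 8.23. Its levels were 18.9, 16.3 and 13.6 CPM in control and 47.5, 29.0 and 14.6 CPM in the KO libraries, with a log2 fold change of 0.90 (SE 0.40, edgeR adjusted p = 0.212).

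Ccnb2, the kinase Plk1 and the Aurora kinases Aurka and Aurkb had fitted differences of 0.78, 1.05, 0.54 and 0.52, and none passed the test (edgeR adjusted p from 0.308 to 0.601). Without KO 1 those of the Aurora kinases were 0.03 and -0.11. Plk1, which triggers mitotic entry and spindle assembly, had the largest ratio of KO 1 to KO 3 in the set, 5.62 (95% interval 3.96 to 8.20), with 220 reads against 37. The same ratio was 3.92 for Ccnb1 (3.29 to 4.68), 3.16 for Cdk1 (2.73 to 3.67) and 3.26 for Ccna2 (2.91 to 3.65). These intervals cover counting error only, since amplified reads are not independent molecules, and they compare libraries, not genotypes.

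The checkpoint and kinetochore genes hold chromosomes back until the spindle is attached and then release them. In all 7 KO 1 was the highest library and KO 3 the lowest. Cdc20, the activator of the anaphase-promoting complex, was the most abundant by FPKM (5.53). Its level was 11.4, 5.93 and 5.56 CPM in control and 17.1, 15.5 and 4.35 CPM in the libraries labelled KO, with a log2 fold change of 0.69 (SE 0.54, edgeR adjusted p = 0.457). Control 1 stood apart from the other controls, and KO 3 was under all of them. Cenpe, the motor that carries chromosomes along spindle fibres from the kinetochore, had the largest fitted difference of the group. Its levels were 11.2, 11.1 and 9.66 CPM in control and 27.0, 20.3 and 8.80 CPM in the KO libraries (0.81, SE 0.38, edgeR adjusted p = 0.229, and 0.45 with adjusted p = 0.536 without KO 1).

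The checkpoint kinase Bub1 and its relative Bub1b had steady controls, at 4.75 to 5.396 CPM and 9.96 to 10.7 CPM, and KO libraries that ran from 3.58 to 13.6 CPM and from 8.87 to 23.2 CPM. Mad2l1, which holds Cdc20 inactive until attachment, ran from 4.67 to 5.59 CPM in control and from 3.72 to 10.02 CPM in the KO libraries. Cenpf, a large kinetochore protein, was the exception in KO 2, whose 28.0 CPM lay within the control range of 24.3 to 29.3 CPM; its sign turned without KO 1 (0.26 with it and -0.27 without). Birc5, survivin of the chromosomal passenger complex, was at 6.56 CPM in KO 1 and between 3.29 and 3.89 CPM in the other 5 libraries.

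The motors and spindle proteins behaved alike: in each of the 5, KO 1 and KO 2 were above all controls and KO 3 was not. Prc1, which bundles the microtubules of the central spindle, led this group in both level (7.59 FPKM) and fitted difference. Its levels were 21.2, 14.1 and 13.6 CPM in control and 47.5, 29.2 and 11.9 CPM in the libraries labelled KO (log2 fold change 0.85, SE 0.47, edgeR adjusted p = 0.298, and 0.33 with adjusted p = 0.697 without KO 1). The spindle motor Kif11, the cytokinesis motors Kif20a and Kif23, and the spindle assembly factor Tpx2 had fitted differences from 0.71 to 0.83, with edgeR adjusted p from 0.259 to 0.311.

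The genes grouped here as proliferation markers were Mki67, whose protein coats mitotic chromosomes, and Top2a, which encodes the topoisomerase that untangles them. Mki67 was at 81.7, 63.4 and 79.9 CPM in control and at 182, 130.1 and 57.3 CPM in the libraries labelled KO. Top2a was at 48.0, 42.6 and 46.4 CPM in control and at 117, 84.6 and 37.0 CPM in the KO libraries. In both genes KO 3 was the lowest library of the 6 and KO 1 the highest. Their log2 fold changes were 0.71 (SE 0.38) and 0.80 (SE 0.37), with edgeR adjusted p of 0.289 and 0.231. Without KO 1 these became 0.32 and 0.41 (adjusted p = 0.654 and 0.543). With 884 to 5263 reads per library for this pair, counting error was small beside the spread: the KO 1 to KO 3 ratio was 3.17 for Mki67 (95% interval 2.998 to 3.36) and 3.15 for Top2a (2.94 to 3.39).

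Summed over the 21 genes from G2/M to the proliferation markers, the level was 332, 261 and 289.7 CPM in control and 742, 517 and 229.9 CPM in the libraries labelled KO 1, 2 and 3. KO 1 was the highest library for all 21 (10.5% of all genes have it so). The order with KO 1 and KO 2 above all controls and KO 3 not held for 19 (6.93% of all genes). KO 3 was below every control for 13 of the 21, against 3718 of all 14466 genes tested. The median of these genes lay 1.27 above the control mean in KO 1, 0.83 in KO 2 and -0.29 in KO 3, with controls between -0.13 and 0.13 (log2(CPM + 1) scale). Their median log2 fold change was 0.76, and 0.38 without KO 1.

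**Figure D4:**
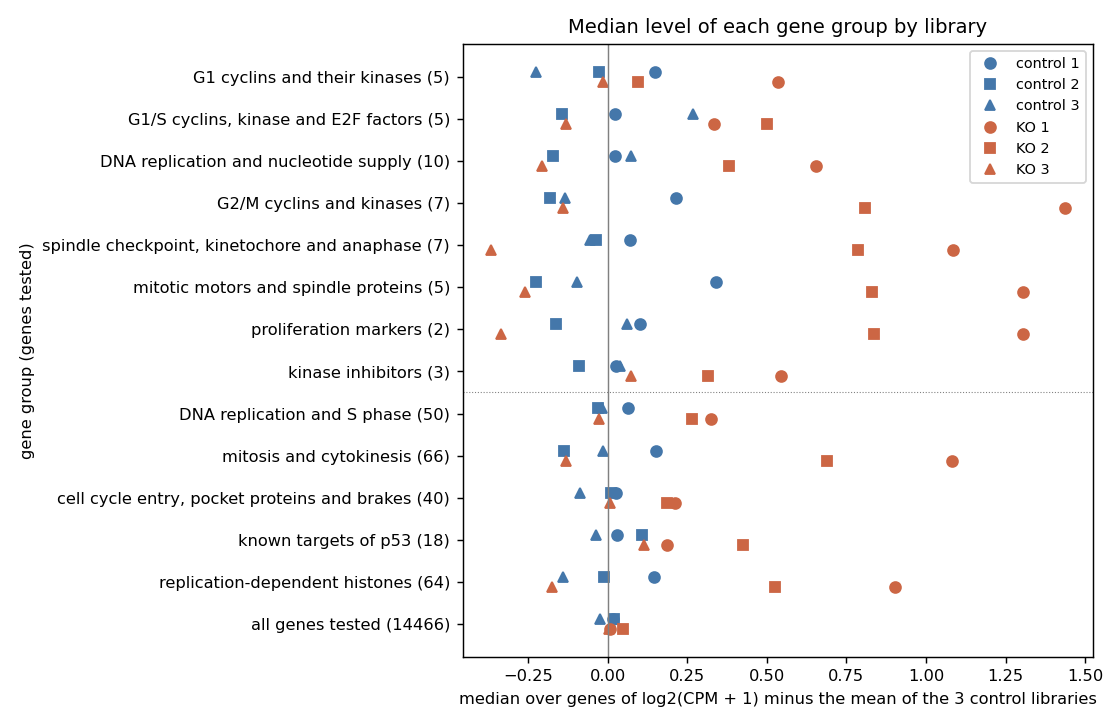
Median over the genes of each group (rows, number tested in brackets) of log2(CPM + 1) minus the mean of the 3 control libraries, for each library (blue controls, orange KO; marker shape gives the library number). The spread of the orange markers is widest in the mitotic groups, narrower in G1 and replication genes, and near 0 over all genes tested.

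The kinase inhibitors restrain the cycle, and none of the 3 passed the test. Cdkn1a, p21, which p53 induces, was at 12.6, 17.7 and 11.5 CPM in control and 32.8, 20.4 and 17.1 CPM in the libraries labelled KO. KO 1 was far above the rest, KO 2 was above the controls, and KO 3 was within their range (log2 fold change 0.75, SE 0.29, 95% interval 0.07 to 1.43, edgeR adjusted p = 0.160, and 0.43 with adjusted p = 0.379 without KO 1). Cdkn1b, p27, a brake kept high in resting cells, was the most abundant inhibitor (20.0 FPKM) and the steadiest gene of the set. Its levels were 50.5, 45.7 and 50.0 CPM in control and 46.0, 48.4 and 51.3 CPM in the KO libraries, a log2 fold change of -0.01 (SE 0.11, 95% interval -0.26 to 0.25, edgeR adjusted p = 0.983). Cdkn2c, p18, ranked the KO libraries like the replication genes, at 27.9, 23.7 and 13.5 CPM against 16.5 to 21.1 CPM in control (0.20, edgeR adjusted p = 0.679).

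Other genes of the same pathways were read from further lists. Of 66 more genes of mitosis and cytokinesis, 0 rose and 0 fell by edgeR's adjusted p. At an unadjusted p under 0.05 there were 15 (22.7%, against 25.9% of all genes), or 2 without KO 1 (3.03%, against 20.0%). DESeq2 called 4 (6.06%, against 17.0%), 3 higher and 1 lower. Of these 66, 60 were fitted higher (against 7377 of all 14466 genes tested), or 54 without KO 1. KO 1 was highest for 56 (10.5% of all genes have it so), and KO 1 and KO 2 stood above all controls with KO 3 not for 46 (6.93% of all genes). Their median log2 fold change was 0.76, the same as that of the 21 mitotic members, and 0.40 without KO 1. An exception was Pttg1, securin, which guards cohesin until anaphase. Its levels were 61.8, 70.7 and 44.5 CPM in control and 31.8, 26.5 and 38.3 CPM in the libraries labelled KO, lower in each KO library than in any control (log2 fold change -0.87, SE 0.21, edgeR adjusted p = 0.0706). It was the 1 gene of the 66 that lay so (1.52%, against 14.5% of all genes), and 7 lay above all controls (10.6%, against 16.4%).

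Of 50 more replication and S phase genes, 0 rose and 0 fell by edgeR, and 9 had an unadjusted p under 0.05 (18.0%, against 25.9% of all genes), or 4 without KO 1 (8%, against 20.0%). DESeq2 called 4 (8%, against 17.0%), 1 higher and 3 lower. Their median log2 fold change was 0.22, and 0.16 without KO 1. The smallest adjusted p there was that of Gmnn, geminin, which blocks relicensing of replicated DNA. Gmnn was at 36.6, 31.8 and 22.4 CPM in control and 17.7, 14.8 and 16.1 CPM in the KO libraries, again without overlap (-0.90, SE 0.20, edgeR adjusted p = 0.0606). Such a lack of overlap was near the share of all genes: 7 of the 50 lay below all controls in every KO library (14.0%, against 14.5%). Another 8 lay above (16.0%, against 16.4%). Of 40 genes of cell cycle entry, pocket proteins and brakes, 0 rose and 0 fell by edgeR, and 9 had an unadjusted p under 0.05 (22.5%, against 25.9% of all genes), or 3 without KO 1 (7.50%, against 20.0%). DESeq2 called 4, all lower (10%, against 17.0% of all genes in either direction). The median was 0.15, and 0.098 without KO 1. The E2F partner Tfdp2 led this list, at 135, 146 and 107 CPM in control and 82.0, 73.0 and 91.7 CPM in the libraries labelled KO (-0.65, SE 0.16, edgeR adjusted p = 0.0690). Gmnn, Pttg1 and Tfdp2 were each called as lower by DESeq2 and by edgeR without control 3.

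Of 18 known p53 targets, 3 rose (16.7%, against 2.61% of all genes) and 0 fell (against 1.09%). Their median log2 fold change was 0.23, or 0.25 without KO 1, and 11 were fitted higher and 7 lower. At edgeR's unadjusted p under 0.05 there were 6 (33.3%, against 25.9% of all genes), or 5 without KO 1 (27.8%, against 20.0%). DESeq2 called 6 (33.3%, against 17.0%), 4 higher and 2 lower. Phlda3, an inhibitor of AKT signalling, was at 19.1, 17.5 and 16.8 CPM in control and 40.2, 42.4 and 31.6 CPM in the libraries labelled KO, and rose by 1.10 (SE 0.15, edgeR adjusted p = 0.0207). Plk2, a polo-like kinase of centriole duplication, was at 59.5, 55.6 and 60.1 CPM in control and 90.4, 104 and 96.4 CPM in the KO libraries, and rose by 0.73 (SE 0.11, edgeR adjusted p = 0.0246). The RNA-binding protein gene Zmat3 rose by 0.78 (SE 0.16, edgeR adjusted p = 0.0498), from 21.9, 28.2 and 27.3 CPM to 49.2, 46.5 and 37.4 CPM. Unlike the 21 mitotic members, each of these 3 had all KO libraries above all controls, KO 3 included. In all, 4 of the 18 targets did (22.2%, against 16.4% of all genes). None of the 3 was called without KO 1 (adjusted p = 0.0889, 0.0820 and 0.153), nor without any other library except control 3. With other scaling, no filter, limma or the most abundant transcript, 2 of the list were called, Phlda3 and Plk2.

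Of 64 histone genes tested, of 69 listed as replication-dependent by symbol prefix alone, 0 rose and 1 fell (1.56%, against 1.09% of all genes). As total RNA was sequenced, transcripts with no poly(A) tail, like those of replication-dependent histones, could be counted. Whether each listed gene, Hist2h2be included, is replication-dependent and lacks that tail was not checked. KO 1 was highest for 56 of the 64 (10.5% of all genes) and the order with KO 3 outside held for 44 (6.93% of all genes), with a median log2 fold change of 0.54, or 0.23 without KO 1. The gene that fell was Hist2h2be, an H2B gene, from 17.2, 16.2 and 13.7 CPM in control to 8.63, 6.30 and 7.96 CPM in the libraries labelled KO. It fell by 1.04 (SE 0.19, edgeR adjusted p = 0.0405), and was not called without KO 1 (adjusted p = 0.102) nor without any other library except control 3. Copies of these genes are nearly identical, so how reads were divided among them is uncertain.

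Marker sums of the cell types that the tissue could hold were set beside the 21 mitotic genes. The 7 cardiomyocyte markers were abundant in every library, as the label of the tissue asks. Their sums were 38425 to 64411 CPM in control and 19850 to 34011 CPM in those labelled KO. All 7 were fitted lower in knockout, with a median log2 fold change of -0.99, or -1.15 without KO 1. For 5 of them every KO library was below every control (71.4%, against 14.5% of all genes). By edgeR 0 of the 7 fell, and DESeq2 called 5 as lower (71.4%, against 17.0% of all genes in either direction). The 7 fibroblast markers summed to 6342 to 17739 CPM in control and 28121 to 39201 CPM in the KO libraries. With edgeR, Postn was the single one called as risen (adjusted p = 0.0338, and 0.0995 without KO 1), or 14.3%, against 2.61% of all genes. DESeq2 called 4 as risen (57.1%, against 7.75% of all genes). Without control 3 edgeR called 3, while 24.6% of all genes were then called. KO 1 and KO 2 were the highest libraries for the fibroblast sum too, but KO 3 came next, above all controls, where the mitotic sum put KO 3 last. Of these 7, 5 had all KO libraries above all controls (71.4%, against 16.4% of all genes), while Dcn and Pdgfra overlapped. Dcn was at 1166, 1486 and 1753 CPM in control and 1324, 1690 and 1783 CPM in the KO libraries. Pdgfra was at 121, 176 and 261 CPM in control and 179, 256 and 226 CPM in the KO libraries. The 7 macrophage markers summed to 740 to 2193 CPM in control and 1923, 2644 and 1685 CPM in KO 1, 2 and 3. Control 3 was above KO 1 and KO 3. Endothelial sums (6 markers) were alike, 1014 to 1351 CPM and 1025 to 1319 CPM, and so were those of smooth muscle and pericytes (6 markers), 1325 to 1778 CPM and 1524 to 1793 CPM. Within the latter sums Rgs5 alone held 985 to 1328 CPM, and single markers went opposite ways. Cspg4 was above all controls in every KO library (16.7% of the list, against 16.4% of all genes). Kcnj8 was below all of them (16.7%, against 14.5%).

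The remaining lists were scarce or differed between libraries of the same genotype. Erythroid sums (6 markers) were 261 to 688 CPM in control and 829, 219 and 132 CPM in the libraries labelled KO 1, 2 and 3, so KO 1 was also highest here. Within that list Hba-a1 and Hba-a2, nearly identical copies, exchanged reads between libraries, and Hbb-bt was at or below 0.207 CPM. Neutrophil sums (6 markers, Ly6g at 0 in 5 libraries) were 6.77 to 110.1 CPM in control and 43.3, 91.4 and 13.3 CPM in KO 1, 2 and 3. B and plasma cell sums (6 markers) were 9.54 to 775 CPM and 14.0 to 181 CPM, highest in control 3. T and NK cell sums (5 of 6 markers analysed) stayed at or below 7.71 CPM. Adipocyte sums (6 markers) were 57.9 to 918 CPM in control and 237, 439.7 and 2.30 CPM in KO 1, 2 and 3. KO 3 was the lowest library for all 5 adipocyte markers tested (100%, against 9.50% of all genes). Mesothelial sums (6 markers) were 30.0 to 203 CPM in control and 41.4 to 58.9 CPM in the KO libraries. Atrial sums (5 markers, Bmp10 at 0 in all) were 43.2 to 546 CPM in control and 152 to 638 CPM in the KO libraries, highest in KO 1. Of the sums of 152 and 153 CPM in KO 2 and KO 3, Dkk3 alone held 144.5 and 150.4 CPM. Dkk3 was above all controls in every KO library (25.0% of the 4 markers tested, against 16.4% of all genes). The part of any of these cells in the levels of the cell cycle genes was not tested.

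**Figure D5:**
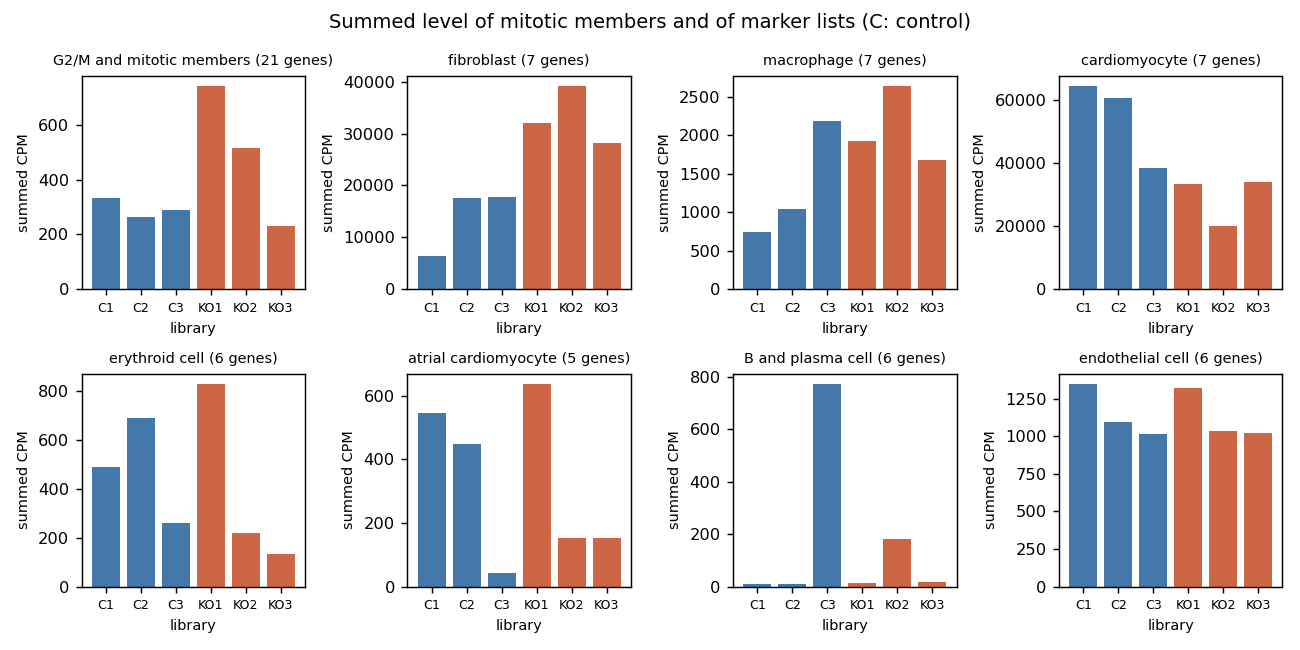
Summed CPM (y axes, from 0) of the 21 G2/M and mitotic genes and of 7 marker lists in each library (C, control, blue; KO, orange). The mitotic sum runs KO 1, KO 2, then controls, then KO 3, while the fibroblast sum has all 3 KO libraries above the controls and the erythroid and atrial sums are highest in KO 1.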

How the data were processed

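Total RNA of 6 libraries, 3 control and 3 NRK-2 knockout by their column names, was prepared with a stranded kit, per the labels' protocols. The authors deposited 1 table of 36780 transcripts with read counts, FPKM values and transcript lengths, per the file headers. HISAT2, Bowtie2 and mm10 are named in the submitters' processing notes. Neither the counting program nor the annotation release nor strand use is given in the sources used here.

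Read counts were summed per gene symbol and tested with edgeR 4.0.16 in R 4.3.3 (filterByExpr, TMM scaling, quasi-likelihood test, Benjamini-Hochberg over 14466 genes, threshold 0.05). Standard errors and 95% intervals come from the fitted value and its F statistic. CPM divides the counts by the scaled library total. Levels relative to control use log2(CPM + 1). The code was tested on simulated data.

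The cell cycle genes and all lists were chosen with earlier results of these data known. Values are given library by library for the most abundant gene (FPKM) and the largest fitted difference of each role, and for up to 3 genes of each further list, past the test or else by smallest adjusted p. Cdk1, Mki67, Mcm6, Ccnd1 and other genes described by level were chosen after their values were seen. Alternatives were RLE or no scaling factors, no filter, DESeq2 1.42.0, limma 3.58.1 on log2(FPKM + 1), the most abundant transcript of each gene, the library number as a block, and leaving out each library. Library totals of 22377348 to 33086384 reads set the counting precision. Promoters are from RefSeq (GRCm38.p6), and the 8 genes with no entry there have no promoter counted.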

Additional observations from a re-analysis of the deposited data

How the results depend on the processing

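The count of cell cycle genes called was 0 in 11 of 13 alternatives, 4 with DESeq2, and 0 to 3 over the fits that each left out 1 library; the 3 came without control 3. Over all genes the 535 calls became 2445 with DESeq2, 864 with limma on FPKM, 172 with the most abundant transcript, and 3 to 3628 with 1 library left out (3 without KO 3, 3628 without control 3; each other omission left 25 to 88). With DESeq2 45.6% of the calls were higher in knockout, against 70.7% with edgeR. Deviations of libraries with the same number from their group means had correlations of 0.31, -0.33 and -0.35. With 3 libraries per genotype these cannot show whether the numbers pair the libraries. With the number as a replicate block 6 genes and 0 of the 44 were called, and p53 targets and histones then had 0 calls each. Further lists moved as follows. Replication genes had 1 call with library totals, 4 with DESeq2, 1 with limma and 0 to 5 with 1 library left out. Mitosis genes had 4 with DESeq2, 1 with limma and 0 to 3. Entry genes and brakes had 4 with DESeq2 and 0 to 8. The p53 targets had 6 with DESeq2 and 0 to 8. Histones had 2 with library totals, 4 with DESeq2, 2 with limma, 0 with the most abundant transcript and 0 to 3. The median log2 fold change of the 44 ran from 0.33 to 0.88 with 1 library left out. For 33 of the 44 no alternative turned the direction, and 11 turned in at least 1. Ccne2 turned to 0.066 with library totals, 0.056 with limma, and ran from -0.23 to 0.19 with 1 library left out. Ccnd3 turned to 0.10, 0.084, and -0.13 to 0.058 likewise. Pcna turned to 0.10 with library totals, 0.085 with limma, 0.00398 without a filter, and -0.12 to 0.076. Cdkn1b turned to 0.093 with library totals, 0.092 with limma, 0.00519 without a filter, 0.000318 with the most abundant transcript, and -0.056 to 0.032. With 1 library left out Ccnd1 ran from -0.25 to 0.41, Cdk2 from -0.036 to 0.35, Aurkb from -0.11 to 0.90, Cenpf from -0.27 to 0.57, Mcm2 from -0.038 to 0.48, Mcm5 from -0.082 to 0.55 and Cdkn2c from -0.024 to 0.44. Library totals alone moved the median of all genes by 0.098, and put control 3 at 0.096 for the median level of the 44 and 0.072 for that of the mitotic genes relative to the control mean. The cause of these changes was not tested. Depth was low for genes such as E2f1 and Plk1, which had 29 and 37 reads in their lowest library.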

Other observations

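The deposited table splits 15 of the 44 cell cycle genes over more than 1 transcript, and 29 have a single one. For 9 of the 15, at least 1 transcript had 0 reads in at least 1 library, which the sums per gene do not show. One of the 3 transcripts of Ccnd3 (2073 bases) had 0 reads in all controls and in the library labelled KO 3, and 190 and 158 reads in KO 1 and KO 2, while the main transcript (1979 bases) had 977 to 1531 reads in every library. Cdkn1a had 2 transcripts that alternated: that of 1943 bases had 256, 151 and 0 reads in control and 352, 420 and 77 in the KO libraries, and that of 1913 bases had 0, 217 and 284 reads against 599, 309 and 392. E2f1 was counted on 1 of its 2 transcripts alone in control 1 and control 2 (29 and 47 reads on that of 2739 bases) and on the other alone in control 3 and KO 3 (67 and 94 reads on that of 2695 bases). Each of the 5 transcripts of Tpx2 was at 0 or 1 read in at least 1 library. Transcript values of these genes are therefore not compared between genotypes here.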
